A study of Rattus norvegicus with 5 samples.

Results

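The genes described here are the receptors, ligands and direct targets of the Notch pathway in the rat cornea: the receptors Notch1, Notch2, Notch3 and Notch4, the ligands Jag1, Jag2, Dll1 and Dll4, and the target Hes1. They were listed by symbol, with earlier results of these data known, and 9 of the 10 symbols listed have a row among the 20339 genes of the deposited gene table. All 9 passed the filter on low counts; the target Hey1 was not analysed here. RNA was sequenced from whole corneas of male Sprague-Dawley rats aged 6 months, 3 of them wild-type and 2 transgenic P1 hMR rats, which express the human gene NR3C2 (the mineralocorticoid receptor) in excess on top of the rat's own gene. The promoter behind the transgene and the number of founder lines are not given in the sources used here. Each library is taken as 1 rat. The edgeR p-values set the genotype difference against the variation between libraries of the same genotype. That variation is estimated with help from all genes tested, since these 5 libraries alone give little information on it.

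Notch receptors are single-pass membrane proteins that are switched on by ligands of the Jagged (Jag) and Delta-like (Dll) families on a neighbouring cell. Ligand pulling exposes the receptor to an ADAM protease and then to gamma-secretase, and the freed intracellular domain enters the nucleus, binds the DNA-binding protein RBPJ with a Mastermind coactivator and turns on HES and HEY repressor genes. In the cornea the pathway is known for keeping epithelial cells on their path of differentiation, while Notch3 is known from pericytes and vascular smooth muscle, and Notch4 and Dll4 from vessel endothelium.

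Levels are given as CPM, the count scaled to library size with TMM factors, which are not corrected for transcript length, so levels are compared between libraries and not between genes. Total counts ran from 20874010 to 30449675 per library. Human NR3C2 had 0 counts in each wild-type library and 1094 and 1146 counts in transgenic libraries 1 and 2, as the labels have it. Krt12, the keratin that defines corneal epithelium, was at 32247 to 45506 CPM across the 5 libraries, and the keratocyte proteoglycan Kera at 144 to 203 CPM.

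The start regions of 3 of these genes are shown because they carry or lack the letters that RBPJ recognizes: Hes1 as the direct target, and Dll1 and Jag1 as the ligands whose libraries separated by genotype. Each is the 250 bases before the RefSeq start in build GRCr8, read 5′ to 3′ on the gene's strand (minus for all 3), at chr11:84213046-84213295 for Hes1, chr1:64993275-64993524 for Dll1 and chr3:144894884-144895133 for Jag1. Capitals mark the RBPJ core TGGGAA, which reads TTCCCA where it lies on the opposite strand.
Hes1: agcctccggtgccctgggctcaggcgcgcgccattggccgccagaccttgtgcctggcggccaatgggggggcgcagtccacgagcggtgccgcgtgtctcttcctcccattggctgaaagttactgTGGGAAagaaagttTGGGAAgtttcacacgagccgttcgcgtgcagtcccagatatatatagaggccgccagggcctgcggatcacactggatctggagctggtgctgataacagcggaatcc
Dll1: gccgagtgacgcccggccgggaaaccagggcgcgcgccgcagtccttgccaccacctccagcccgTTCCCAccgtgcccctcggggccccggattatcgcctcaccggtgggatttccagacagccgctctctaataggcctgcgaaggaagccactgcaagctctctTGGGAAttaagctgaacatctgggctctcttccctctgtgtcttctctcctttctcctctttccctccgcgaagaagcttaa
Jag1: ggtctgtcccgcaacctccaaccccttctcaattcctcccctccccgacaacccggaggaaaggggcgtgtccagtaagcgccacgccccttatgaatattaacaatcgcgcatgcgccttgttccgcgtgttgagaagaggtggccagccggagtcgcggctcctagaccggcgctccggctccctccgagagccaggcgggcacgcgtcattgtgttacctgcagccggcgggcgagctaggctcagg
In Hes1 the cores lie 123 to 118 and 109 to 104 bases before the start, in the same orientation. In Dll1 they lie 185 to 180 bases (other strand) and 82 to 77 bases before it. Of the 10 listed genes 8 had a window in the table, with 9 windows in all. The core was found in 3 of the 9 (Hes1, Dll1 and Notch4, each with 2 matches), against 22.1% of all 33469 windows of this length, of which 2.71% held at least 2. The longer form GTGGGAA, a subset of these matches searched on both strands, occurred once in Hes1 and once in Dll1 and was found in 5.27% of all windows. The steroid receptor half-site TGTTCT, searched on both strands, was in 0 of the 9 windows and in 17.5% of all windows. With only 9 short windows this is not read as a lack of such sites in these genes. The 9 windows were 57.2% to 83.6% G or C, and the shares over all windows were not matched for this. These are letter matches only, and the files were made on an older build, rn6.

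No Notch receptor, ligand or target passed the edgeR quasi-likelihood test at an adjusted p of 0.05. Of the 9 tested members 0 rose and 0 fell, where 0.00752% of all 13304 tested genes rose (1 gene, the transgene) and 0% fell. At an unadjusted p under 0.05, 2 members were higher in transgenic corneas and 0 lower, where 4.39% of all genes were higher and 1.93% lower. Those 2 were the ligands Dll1 and Jag1, and they were also the only members whose transgenic libraries both exceeded every wild-type library, which 12.0% of all genes had (10.7% had both below). Log2 fold changes of the members, transgenic against wild-type, had a median of 0.09 (7 higher, 2 lower), where the median over all tested genes was -0.01. DESeq2 and limma voom likewise called 0 of the 9, each with 2 at an unadjusted p under 0.05, while DESeq2 called 0.391% of all genes.

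**Figure D1:**
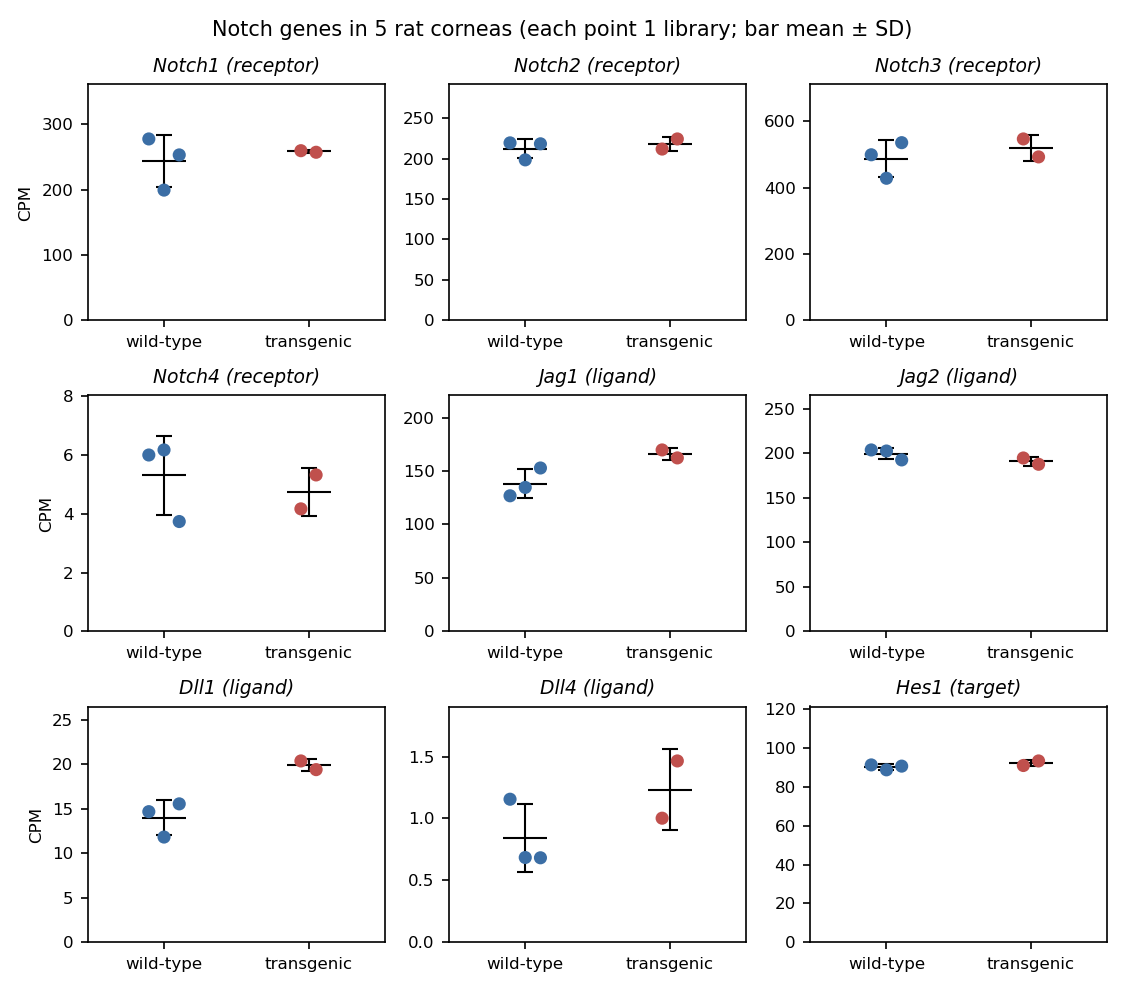
CPM (y axis, from 0, a different scale in each panel) of the 9 Notch genes in 3 wild-type (blue) and 2 transgenic (red) corneas; each point is 1 library, and bars are the mean ± SD. For Jag1 and Dll1 both red points lie above all blue points, while the genotypes overlap for the other 7 genes.

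Dll1 encodes a Delta-like ligand that activates Notch receptors on adjoining cells. It had 14.7, 11.8 and 15.6 CPM in wild-type libraries 1, 2 and 3, against 20.4 and 19.4 CPM in transgenic libraries 1 and 2. Both transgenic corneas were high and close to each other, and the groups did not overlap. The means were 14.0 ± 1.95 CPM (SD, n = 3) and 19.9 ± 0.690 CPM (SD, n = 2), a ratio of 1.42. Its log2 fold change was 0.50 ± 0.15 (SE), with a 95% interval of 0.17 to 0.84. The unadjusted p of 0.00746 placed Dll1 at rank 182 among all genes tested, and it did not pass after adjustment (edgeR adjusted p = 0.543). Leaving out 1 library at a time kept the log2 fold change between 0.40 (without wild-type cornea 2) and 0.58 (without wild-type cornea 3), with unadjusted edgeR p-values of 0.00531 to 0.0420.

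Jag1, a Jagged ligand expressed in many epithelia and vessels, had 127, 135 and 153 CPM in wild-type libraries 1, 2 and 3. It had 169.7 and 162 CPM in transgenic libraries 1 and 2. The groups did not overlap, although wild-type cornea 3 came close to transgenic cornea 2. The means were 138 ± 13.3 CPM (SD, n = 3) and 166 ± 5.27 CPM (SD, n = 2), a ratio of 1.20. The log2 fold change was 0.27 ± 0.10 (SE), with a 95% interval of 0.03 to 0.50, and did not pass (edgeR unadjusted p = 0.0296, adjusted p = 0.741). Its unadjusted edgeR p was above 0.05 without wild-type cornea 1 (0.0974) or 2 (0.0677) and without transgenic cornea 1 (0.119) or 2 (0.0506), and was 0.00763 without wild-type cornea 3.

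Jag2, the other Jagged ligand, did not share this pattern of levels. It had 204, 202 and 192 CPM in wild-type libraries 1, 2 and 3, against 195 and 188 CPM in transgenic libraries 1 and 2. Its groups overlapped, with wild-type cornea 3 below transgenic cornea 1. The log2 fold change was -0.06 ± 0.09 (SE), with a 95% interval of -0.27 to 0.14 (edgeR adjusted p = 0.928). Among the wild-type libraries its coefficient of variation was 3.08%, against 9.66% for Jag1 and 13.9% for Dll1.

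Ratios of genes within a library do not depend on its scaling, and 6 were taken. The Jag1 to Jag2 ratio of CPM was 0.623, 0.665 and 0.794 in wild-type libraries 1, 2 and 3, against 0.872 and 0.865 in transgenic libraries 1 and 2. The Dll1 to Jag2 ratio was 0.0722, 0.0585 and 0.0809 in wild-type and 0.105 and 0.104 in transgenic corneas. Both ratios, and also that of Dll1 to Jag1 (0.0880 to 0.116 against 0.1197 and 0.1202), did not overlap between genotypes. Each holds Dll1 or Jag1, whose own levels already did not overlap, so this restates those values and is no separate support. How often ratios of other genes separate was not examined. An exact two-sided permutation test over the 10 ways to split the 5 libraries gave p = 0.2 for each of these 3, the smallest value it can give (0.4 adjusted over the 6 ratios), so this design cannot pass a threshold of 0.05 by that test. The ratios Notch3 to Notch1, Notch2 to Notch1 and Hes1 to Notch1 overlapped between genotypes (exact permutation p = 1 for each).

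Dll4, the Delta-like ligand of vessel endothelium, was counted at a low level. Its counts were 32, 14 and 15 in wild-type libraries 1, 2 and 3, against 26 and 46 in transgenic libraries 1 and 2, or 1.16, 0.685, 0.683, 1.00 and 1.46 CPM. Wild-type cornea 1 lay above transgenic cornea 1, so the groups overlapped. The value of 0.54 for the log2 fold change (SE 0.44) was similar in size to that of Dll1, but its 95% interval ran from -0.45 to 1.53 (edgeR adjusted p = 0.874). At this depth any ratio from 0.730 to 2.89 lay within the interval. With 1 library left out the log2 fold change ranged from 0.24 (without transgenic cornea 2) to 0.86 (without wild-type cornea 1).

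The receptors Notch1, Notch2 and Notch3, all well counted, gave overlapping groups. Notch1, the receptor known for its part in corneal epithelial repair, had 278, 199 and 253 CPM in wild-type libraries 1, 2 and 3, against 259.7 and 257 CPM in transgenic libraries 1 and 2. Wild-type cornea 2 was the low library, and both transgenic values lay within the wild-type range. On the log2 scale the difference was 0.09 ± 0.14 (SE; 95% interval -0.22 to 0.39, edgeR adjusted p = 0.937), and it was -0.03 without wild-type cornea 2.

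Notch2, a receptor that is widely expressed in epithelia, had 219, 198 and 218 CPM in wild-type libraries 1, 2 and 3. It had 212 and 224 CPM in transgenic libraries 1 and 2, with a log2 fold change of 0.04 ± 0.10 (SE; 95% interval -0.18 to 0.26, edgeR adjusted p = 0.962). Notch3, the pericyte and smooth muscle receptor, which is also expressed in epithelia, had 499, 429 and 536 CPM in wild-type against 547 and 493 CPM in transgenic libraries. Its log2 fold change was 0.09 ± 0.12 (SE; 95% interval -0.18 to 0.36, edgeR adjusted p = 0.915). As with Notch1, wild-type cornea 2 gave the lowest value for Notch2 and for Notch3, and it also gave the lowest value for Dll1 and for Hes1.

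Notch4, the endothelial receptor, had 166, 126 and 82 counts in wild-type libraries 1, 2 and 3, against 108 and 167 in transgenic libraries 1 and 2. That is 5.99, 6.17 and 3.73 CPM, then 4.16 and 5.32 CPM. Here wild-type cornea 3 was the low library and both transgenic values lay between it and the other wild-type corneas. On the log2 scale the difference was -0.16 ± 0.27 (SE; 95% interval -0.76 to 0.45, edgeR adjusted p = 0.941). Over the 4 receptors no unadjusted edgeR p was below 0.459.

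Hes1, the repressor gene that active Notch is known to turn on, was the steadiest of the 9 genes. It had 91.1, 88.6 and 90.5 CPM in wild-type libraries 1, 2 and 3, against 90.8 and 93.2 CPM in transgenic libraries 1 and 2. Its coefficient of variation was 1.46% within wild-type and 1.79% over all 5 libraries, and only 0.263% of all tested genes had a smaller SD of log2(CPM + 0.5). The log2 fold change was 0.03 ± 0.09 (SE; 95% interval -0.16 to 0.22, edgeR adjusted p = 0.969), an interval that spans 0.894-fold to 1.17-fold. Jag2 and Notch2 were next, at the 3.25th and 8.94th percentiles of SD, while Dll4, Dll1 and Notch4 were at the 83.1st, 82.2nd and 79.6th. Counting error is larger for genes with few counts such as Dll4 and Notch4, and Dll1 had 242 to 610 counts. How much of the spread of these genes is counting error was not tested.

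**Figure D2:**
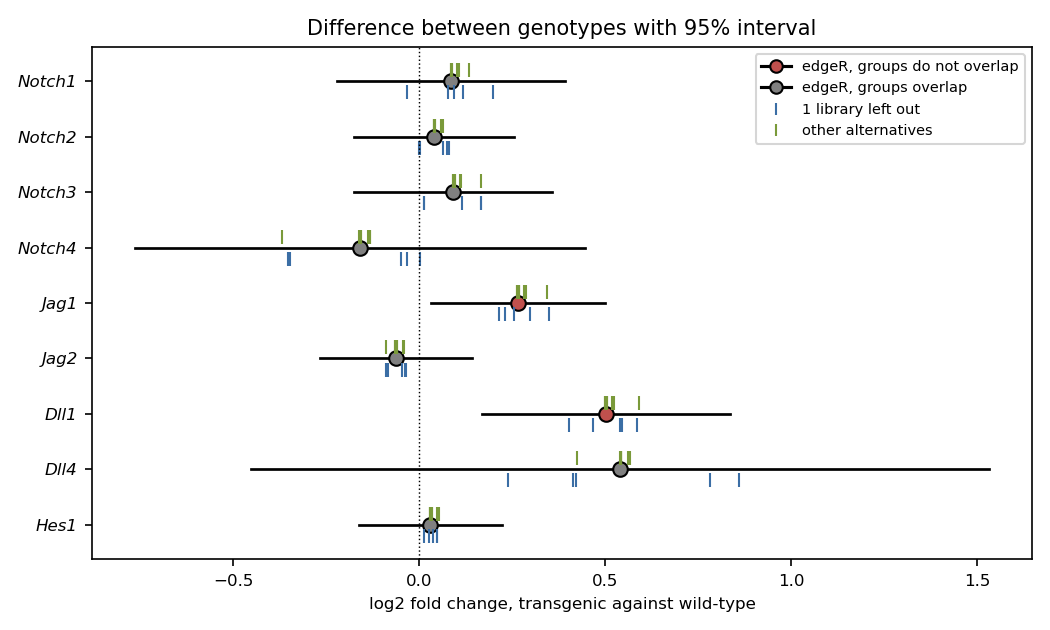
Log2 fold change, transgenic against wild-type (x axis), of the 9 Notch genes with 95% intervals from the edgeR fit; red points mark genes whose genotypes do not overlap, blue ticks the fits with 1 library left out and green ticks the other alternatives. The intervals of Dll1 (0.17 to 0.84) and Jag1 (0.03 to 0.50) lie above 0 before adjustment for multiple tests, and the other 7 include 0.

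Isoform rows were examined because a gene's total can hide a shift between transcripts. Each member but Notch2 has only 1 named isoform, and the second of Notch2 had at most 17.0 counts. A shift between named transcripts could therefore hardly be seen here. The 9 genes have 10 isoform rows under their names, 9 of which were tested and 0 called by edgeR or by DESeq2, where edgeR called 0% of 27110 isoforms. At an unadjusted p under 0.05 only the Dll1 isoform was counted (log2 fold change 0.51 ± 0.17 SE, edgeR unadjusted p = 0.0277), where 3.98% of isoforms were. That isoform held 90.6% to 98.6% of the gene's count, so its row largely restates the gene's values and is no separate support. For Notch4 and Hes1 the named isoform held 100% of the gene's count in every library. For Notch2 the named isoforms held 33.5% to 50.7% and for Jag2 67.1% to 76.9%, with wild-type cornea 2 at the lowest share for both. For Dll4 the single named isoform held 0% in 3 libraries, 25.7% in wild-type cornea 3 and 31.9% in transgenic cornea 1. The isoform table also has 26948 rows without a gene name, which could not be assigned.

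Of the other genes of the pathway, 58 were listed by their role, 56 had a row, 48 passed the filter, and 0 rose and 0 fell by the edgeR test (where 0.00752% and 0% of all genes did). At an unadjusted p under 0.05, 1 was higher (Dlk1) and 2 lower (Dtx1 and Psenen), and DESeq2 and limma voom called 0 of the 48 as well. Both transgenic libraries exceeded every wild-type library for 6 of 48 (12.5%, where 12.0% of all genes did) and were below each of them for 7 (14.6%, where 10.7% did). The median log2 fold change of the 48 was 0.03, against -0.01 over all genes, and -0.01 without transgenic cornea 1. Maml3 and Kat2b were not analysed here; Ep300, Neurl3, Dll3, Hes2, Hes3, Hes5, Hes7 and Helt had at most 9 counts in any library and were not tested. For Ep300, a coactivator that most cells use, counts this low are not read as absence, since a row of the table can miss much of a gene.

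Genes that glycosylate the receptor, which sets how it answers each ligand family, gave 2 of 5 higher and 3 lower. Of the fringe glycosyltransferases, Lfng had 12.7 ± 0.624 CPM in wild-type against 13.6 ± 0.378 CPM in transgenic libraries, and Rfng 17.2 ± 2.26 and 14.5 ± 3.07 CPM (log2 fold change -0.25 ± 0.18 SE, but -0.04 without transgenic cornea 2 and -0.48 without transgenic cornea 1). Poglut1, which adds glucose to the receptor's EGF repeats, had 25.0 ± 2.13 and 23.0 ± 0.140 CPM.

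Genes of receptor cleavage were mostly lower in the transgenic corneas, 7 of 9, with a median log2 fold change of -0.11 and none past the test (medians of -0.15 to -0.05 with 1 library left out, and 6 of 9 lower without wild-type or transgenic cornea 2). Psenen, the small subunit that activates gamma-secretase, had 71.2, 70.5 and 65.8 CPM in wild-type libraries 1, 2 and 3, against 51.4 and 62.8 CPM in transgenic libraries 1 and 2. The groups did not overlap, with transgenic cornea 1 the lowest (log2 fold change -0.28 ± 0.11 SE, edgeR adjusted p = 0.741); without that library it was -0.14. Aph1b, an alternative scaffold subunit, had 2.35, 5.04 and 2.78 CPM against 2.12 and 1.91 CPM, and here wild-type cornea 2 stood high (log2 fold change -0.74 ± 0.37 SE, or -0.34 without that library). Ncstn, the subunit that takes in the substrate, had 191.5 ± 5.27 and 177 ± 4.42 CPM (log2 fold change -0.11 ± 0.09 SE). Psen2, a catalytic subunit, had 15.4 ± 0.628 and 17.1 ± 1.20 CPM. The ADAM proteases that make the first cut had log2 fold changes of 0.07 ± 0.10 (Adam10) and -0.15 ± 0.11 (Adam17).

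In the nucleus, Rbpj had 74.7, 80.4 and 76.4 CPM in wild-type libraries 1, 2 and 3, against 77.7 and 76.5 CPM in transgenic libraries 1 and 2, a log2 fold change of 0.00 ± 0.09 (SE). Of the 7 tested genes of the nuclear complex and its corepressors 5 were higher and 2 lower. The coactivator Maml2 had 17.4 ± 1.99 and 21.2 ± 2.17 CPM (log2 fold change 0.28 ± 0.14 SE) and the corepressor Tle1 9.02 ± 1.25 and 11.6 ± 2.29 CPM (0.37 ± 0.19). Without transgenic cornea 2 the log2 fold change of Maml2 was 0.18, and that of Tle1 was 0.15 without transgenic cornea 1 and 0.56 without transgenic cornea 2. The related corepressor Tle3 lay the other way, at 186 ± 5.51 and 169 ± 13.2 CPM. None of these passed, with edgeR adjusted p-values of at least 0.820 in this group.

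Regulators of ligand and receptor turnover held the listed gene of smallest p. Dtx1, a Deltex ubiquitin ligase that binds the Notch intracellular domain and is itself known as a Notch target, had 4.95, 5.77 and 7.06 CPM in wild-type libraries 1, 2 and 3. It had 3.66 and 3.50 CPM in transgenic libraries 1 and 2. All wild-type values were higher, and the log2 fold change was -0.72 ± 0.24 (SE; edgeR unadjusted p = 0.0128, adjusted p = 0.639), or -0.58 without wild-type cornea 3. Its relative Dtx3 lay the other way (15.9 ± 1.15 and 19.0 ± 1.28 CPM), and Numb, an inhibitor of the receptor, had a log2 fold change of 0.04 ± 0.09. Among genes that ubiquitylate ligands, Mib1 had 53.1 ± 5.40 and 56.9 ± 7.21 CPM and Neurl1b 2.73 ± 1.04 and 2.42 ± 0.636 CPM.

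The ligand-like proteins were higher in 5 of 5 tested, where 48.2% of all genes were higher. Their median log2 fold change was 0.35, and none passed the test. Without transgenic cornea 2 they were higher in 3 of 5, with a median of 0.26, and with any other library left out in 5 of 5, with medians of 0.26 to 0.81. Dlk1, a Delta-like protein without the domain that binds Notch in the classical way, had 3.25, 2.35 and 2.60 CPM in wild-type libraries 1, 2 and 3, against 3.277 and 8.56 CPM in transgenic libraries 1 and 2. Transgenic cornea 2 carried this difference, since the log2 fold change was 1.11 ± 0.39 (SE; edgeR adjusted p = 0.703) with it and 0.26 without it. Dlk2, the sister gene, was also highest in that library, at 12.9 CPM against 6.95 to 8.88 CPM in the other 4, and its log2 fold change was 0.35 with it and -0.07 without it.

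Other HES and HEY genes and targets gave 5 of 8 higher and 3 lower, and their genotypes overlapped in all 8. Heyl, a target known from smooth muscle, had 1.91, 1.03 and 1.32 CPM in wild-type against 2.58 and 1.78 CPM in transgenic libraries. Hey2 had 9.68, 7.83 and 6.97 CPM and then 12.2 and 6.65 CPM, so both its highest and its lowest value were transgenic. Nrarp, a target that feeds back on the Notch complex, had 94.0 ± 8.88 and 90.7 ± 8.43 CPM (log2 fold change -0.05 ± 0.11 SE). The clock-linked repressor Bhlhe40 had 210.5 ± 41.7 and 244 ± 5.40 CPM.

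**Figure D3:**
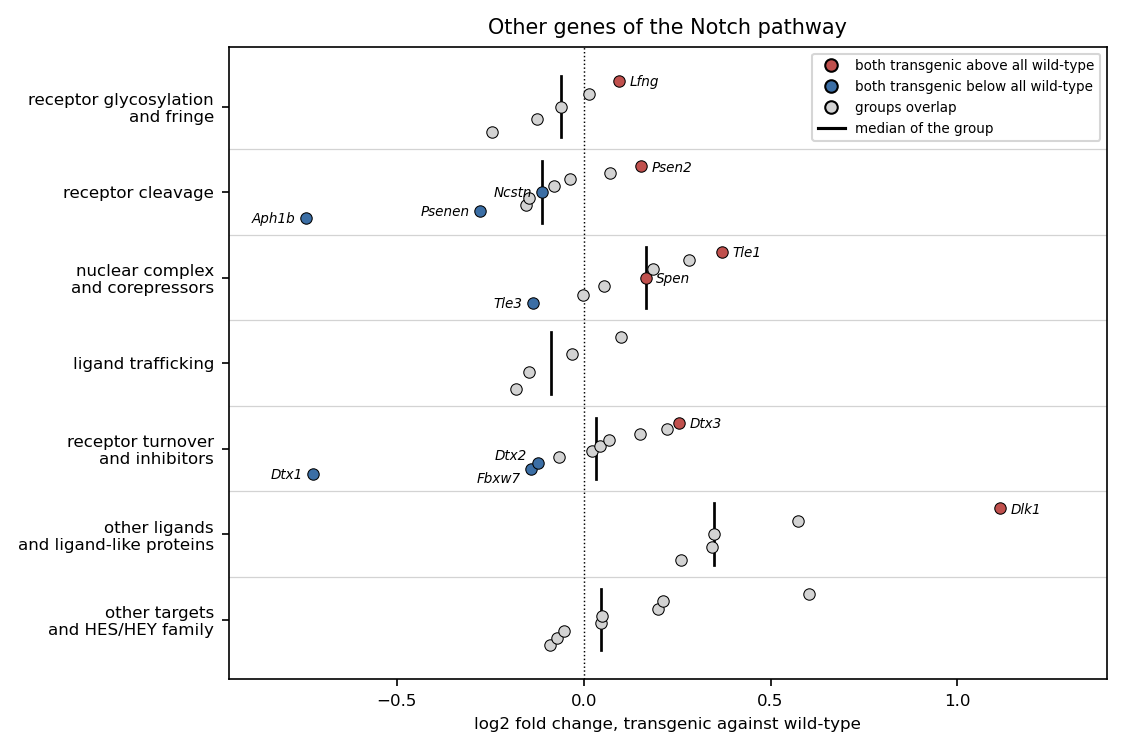
Log2 fold change, transgenic against wild-type (x axis), of the 48 tested genes of the wider pathway list, 1 point a gene, grouped by role; filled red or blue points have no overlap between genotypes and vertical bars are group medians. Points lie on both sides of 0, with 26 higher and 22 lower; Dlk1 lies farthest to the right, at 1.11, and Aph1b and Dtx1 farthest to the left, at -0.74 and -0.72.

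Marker lists of the cell types that a dissected cornea can hold differed between the libraries too, and their part in the values of Dll1, Jag1 and the rest was not tested. Fewer cells of a type and less RNA per cell cannot be told apart in whole tissue. Summed levels of 6 epithelial markers overlapped, at 102115 to 115597 CPM in wild-type and 94464 to 119357 CPM in transgenic corneas, with means higher for 2 and lower for 4. In the counts that follow, without overlap means both transgenic values above all wild-type values, which 12.0% of all tested genes had. Summed levels of 7 keratocyte markers were 1552 to 1737 CPM and then 1793 and 1888 CPM (6 of 7 means higher, 4 of 7 without overlap). Those of 5 corneal endothelial markers were 816 to 918 CPM and then 954 and 959 CPM (4 of 5 higher, 3 of 5 without overlap). For 11 blood vessel markers they were 90.7 to 102 CPM and then 103 and 118 CPM (9 of 11 higher, 1 of 11 without overlap). For 11 pericyte and smooth muscle markers, the cells known for Notch3 and Heyl, they were 184 to 228 CPM and then 236 and 256 CPM (9 of 11 higher, 3 of 11 without overlap). The sums of these last lists weight abundant genes; their mean log2 levels overlapped between genotypes, with wild-type cornea 1 above transgenic cornea 2 for the vessel list and above transgenic cornea 1 for the pericyte list. Among the pericyte and smooth muscle markers Rgs5 had the largest ratio of means. It had 8.38, 5.63 and 5.78 CPM in wild-type against 10.8 and 15.4 CPM in transgenic libraries (edgeR adjusted p = 0.467). Cspg4 (means of 30.5 and 26.3 CPM) and Des (4.49 and 3.85 CPM) went the other way, and Abcc9 was level (3.18 and 3.19 CPM).

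Pigment cells lie in the neighbouring iris and limbus. Their markers had summed levels of 42.5, 6.26 and 28.1 CPM in wild-type libraries 1, 2 and 3. In transgenic libraries 1 and 2 they had 74.5 and 143 CPM (5 of 5 means higher, 5 of 5 without overlap). The 4 Schwann cell markers summed to 19.1 to 24.6 CPM and then 28.5 and 35.4 CPM (4 of 4 higher, 2 of 4 without overlap). The 5 retina markers summed to 2.54 to 15.7 CPM and then 16.2 and 19.2 CPM (5 of 5 higher, 3 of 5 without overlap). The 5 lens markers summed to 11.7 to 74.3 CPM and then 7.71 and 2.80 CPM (0 of 5 higher). Both transgenic values were below all wild-type values for 3 of the 5 lens markers, where 10.7% of all tested genes had this. Lymphatic markers (2 of 3 higher), leukocyte markers (2 of 4) and skeletal muscle markers (1 of 4) overlapped between genotypes, and no listed marker with a row was at 0 in all 5 libraries. Wild-type cornea 2, the library with the lowest Notch1, Notch2, Notch3 and Dll1, had the lowest sum for pigment cell, retina, corneal endothelial, pericyte and smooth muscle, and Schwann cell markers. Its pericyte sum was close to that of wild-type cornea 3 (184 and 187 CPM), which had the lower mean log2 level. It was not lowest for the other lists. It had the highest leukocyte sum (60.5 CPM) and the highest wild-type sums for epithelial and keratocyte markers. Any link to its Notch values was not tested.

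**Figure D4:**
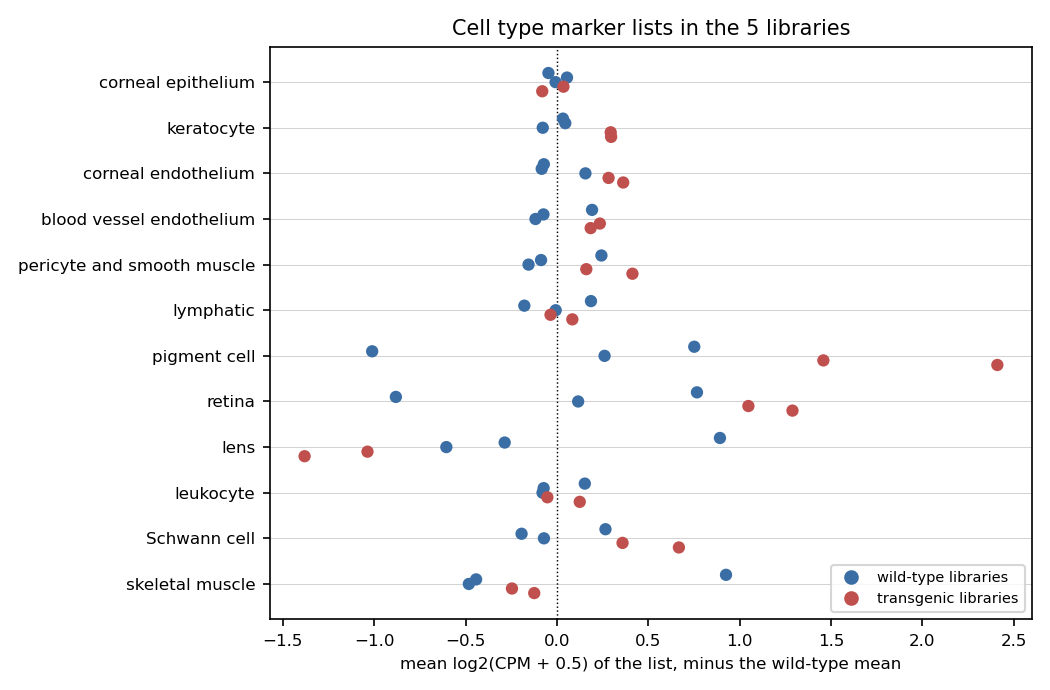
Mean log2(CPM + 0.5) of each cell type marker list, as the difference from the wild-type mean (x axis), in 3 wild-type (blue) and 2 transgenic (red) corneas, 1 point a library. The red points lie above all blue points for keratocyte, corneal endothelium, pigment cell, retina and Schwann cell lists and below them for lens, and overlap with them for the epithelial, blood vessel, pericyte and smooth muscle, lymphatic, leukocyte and skeletal muscle lists.

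Genes most like a member were sought for the 5 of 9 members whose SD of log2(CPM + 0.5) was above the median of all tested genes (0.16). Likeness is the root mean square difference of mean-centred log2 values over the 5 libraries, among 12122 genes with a mean of at least 1 CPM, where close matches are common by number alone. Dll1 was nearest to AABR07058422.1 (0.03) and Moxd1 (0.04), and Jag1 to Pigv (0.01) and Chpf2 (0.03). Notch1 was nearest to Bard1 and Hacl1 (both 0.03), Notch4 to Pkdcc (0.03) and Tm2d3 (0.04), and Dll4 to Lgi4 and Vsnl1 (both 0.04). Moxd1 had 2.49, 1.91 and 2.55 CPM in wild-type against 3.39 and 3.47 CPM in transgenic libraries, and Pigv 18.3, 18.9 and 22.0 CPM and then 24.2 and 23.0 CPM. None of the 10 nearest genes is another member of the Notch lists. Those lists are a very small part of the 12122 genes compared, so this does not show whether members vary together.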

How the data were processed

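The authors deposited expected counts (fractional, unscaled estimates) per gene and per isoform, made on rn6; per the submitters' processing notes the tools, in no stated role, include RSEM 1.2.28 and STAR 2.5.3a, beside FastQC, fastp, edgeR 3.28.0 and DESeq2 1.26.0. RSEM-type counts divide shared reads among transcripts, so isoforms are less certain than genes; strandedness is not given in these sources.

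Expected counts were rounded and all genes fitted together in edgeR 4.0.16 (R 4.3.3): filterByExpr (minimum count 10), TMM, robust quasi-likelihood F test, two-sided, p-values adjusted by Benjamini-Hochberg over the 13304 genes kept, a threshold of 0.05. SE is the log2 fold change divided by the square root of F; 95% intervals use the fit's degrees of freedom. DESeq2 1.42.0, limma 3.58.1 voom, other scalings and filters, left-out libraries and a replicate block were alternatives. The procedure was also run on simulated data. The outcome is not given here and is no support for these results. Replicates are given by the title numbers.

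The members and lists were chosen with earlier results of these data known. In the wider list, named genes are those called, the 2 of smallest p per role and those not tested; others were named after their values were seen. Promoter windows come from RefSeq (GRCr8).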

Additional observations from a re-analysis of the deposited data

How the results depend on the processing

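The number of members called by an adjusted p was 0 in every one of the 13 alternatives (DESeq2, limma voom, 3 other scalings, 2 other filters, the replicate block and each of the 5 libraries left out), and so was the number called in the wider pathway list; the number of member isoforms called was 0 in the 7 alternatives run for isoforms. Directions held in all 13 for Notch3, Jag1, Jag2, Dll1, Dll4 and Hes1. Signs reversed when 1 library was left out, with ranges of -0.0318 (without wild-type cornea 2) to 0.1997 for Notch1, -0.00028 (without transgenic cornea 2) to 0.0803 for Notch2 and -0.352 to 0.0033 (without transgenic cornea 1) for Notch4; the cause was not tested. The median log2 fold change of the wider list ranged from -0.0112 (without transgenic cornea 1) to 0.0673 (without wild-type cornea 3) with 1 library left out. Adjusted p-values over the alternatives were 0.241 to 0.9997 for Dll1 and 0.314 to 0.9997 for Jag1. With transgenic cornea 1 or 2 left out, the lone transgenic library is assumed to vary like the wild-type ones.

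Title numbers 1 and 2 recur in both genotypes, but no label used here ties same-numbered rats together. Correlations of deviations from the group means were 0.0006 for number 1 and -0.11 for number 2. With 2 transgenic libraries their deviations are opposite by construction. Wild-type 1 with transgenic 2 thus gave -0.0006 and wild-type 2 with transgenic 1 gave 0.11, so these correlations cannot decide whether rats were paired. With the replicate number as a block, edgeR called 16 of all genes in place of 1 and 0 members, and the log2 fold changes were 0.59 for Dll1 and 0.34 for Jag1. Number 3 occurs only in wild-type, so the block takes up wild-type cornea 3 and that library adds nothing to the genotype difference. The block is therefore close to the fit without wild-type cornea 3 (0.58 for Dll1 and 0.35 for Jag1) and is not a separate check. Depth limits Dll4 (14 to 46 counts) and Notch4 (82 to 167 counts) most.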
